A study of Mus musculus with 21 samples.

Results

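Heat shock proteins are molecular chaperones, and 10 of their genes were followed in every library of a mouse study of interferon kappa. The genes were *Hspa1a*, *Hspa1b*, *Hspa8*, *Hsph1*, *Dnajb1*, *Hsp90aa1*, *Hspb1*, *Hspa5*, *Hspd1* and *Hspe1*. They were taken by symbol from the expected count tables of skin and lymph node, where each matched 1 of 55491 genes. All 10 passed the filter on low counts in both tissues, among 19101 genes tested in skin and 16173 in lymph nodes. In nodes *Hspa1a* passed only through its UVB libraries, as untreated ones held 0 to 3 counts in WT and 7 to 18 in TG. Its UVB values, and the counts of genes that include it, are conditional on this. The set was selected on measured expression values of these libraries, and the comparison that drew attention to it is not recorded. The calls and adjusted p-values of the 10 genes are therefore descriptions of them and no evidence about the set.

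The study overexpressed *Ifnk*, the gene of the type I interferon IFNκ, from the keratin 14 promoter, which is active in the basal epidermis. *Ifnk* transgenic (TG) mice were made on C57Bl/6 with PiggyBac and backcrossed to BALB/c, and wild-type (WT) mice were BALB/c. Skin came from untreated mice aged 12 months, as 3 libraries of WT skin, 2 of TG nonlesional skin and 4 of TG lesional skin. Inguinal lymph nodes came from WT and TG mice that were left untreated or received UVB, with 3 libraries in each of the 4 groups. The treated mice had their backs shaved and received 250 mJ/cm2 of UVB at 310 nm on 3 days a week for 2 weeks, and were then observed for 2 weeks. The node libraries were therefore not made directly after irradiation. Nodes were passed through a strainer before lysis. The series description says that female and male mice were assessed for lesions, but not which sex a skin library came from. The labels give no age for the mice of the node libraries, and no sex, mouse or skin site for a library. For this sequencing the study counts 3 mice in each UVB-treated node group, as many as there are libraries. P-values measure only the spread between these libraries, which may be technical in the other groups. Libraries are named here by group and by the sample number in the labels.

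Libraries held between 40499078 and 56511276 counts in skin and between 27599809 and 36428435 in nodes. The shallowest was WT UVB library 8, which also stood apart for several of the 10 genes, and results that rest on it are given with and without it. *Ifnk* was listed at 0 counts in the 3 WT skin libraries and in all node libraries, and at 5 to 14 counts in 5 of the 6 TG skin libraries. Whether transgene reads are counted there was not tested. Summed B cell markers (4 genes) were at 806 CPM or more and summed T cell markers (5 genes) at 1476 CPM or more in every node library, and summed keratinocyte markers (6 genes) at 7803 CPM or more in every skin library. CPM are counts relative to library size, scaled by the trimmed mean of M values. As the samples are bulk tissue, fewer cells of a type and less RNA per cell cannot be told apart.

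Chaperones hold unfolded proteins, help them fold and keep them from aggregating. HSP70 proteins bind short hydrophobic stretches and release them in an ATP-driven cycle, J-domain proteins load them with clients, and HSP110 proteins exchange their nucleotide. When unfolded proteins build up, heat shock factor 1 binds heat shock elements, which are inverted repeats of the unit GAA, and induces the cytosolic genes, while stress in the endoplasmic reticulum (ER) induces *Hspa5* through elements of its own.

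The stretches before the transcription start are shown because they hold matches to elements known to regulate such genes, and because they set the inducible cytosolic genes beside *Hspa5*. RefSeq promoters (GRCm38.p6) were at hand for 8 of the 10 genes. No promoter is given for *Hspa8* and *Hsp90aa1*. Each line is the 250 bases before the start, 5′ to 3′ on the gene's strand. Capitals mark a heat shock element of 2 units (GAANNTTC or TTCNNGAA) or, in *Hspa5*, an ER stress element (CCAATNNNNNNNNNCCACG). Both strands were searched.
Hspa1a, chr17:34972157-34972406, minus strand: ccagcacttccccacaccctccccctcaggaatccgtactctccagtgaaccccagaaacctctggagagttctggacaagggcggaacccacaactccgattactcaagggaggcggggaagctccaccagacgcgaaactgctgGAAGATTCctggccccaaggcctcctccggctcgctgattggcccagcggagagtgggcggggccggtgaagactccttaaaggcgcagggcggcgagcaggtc
Hsph1, chr5:149636337-149636586, minus strand: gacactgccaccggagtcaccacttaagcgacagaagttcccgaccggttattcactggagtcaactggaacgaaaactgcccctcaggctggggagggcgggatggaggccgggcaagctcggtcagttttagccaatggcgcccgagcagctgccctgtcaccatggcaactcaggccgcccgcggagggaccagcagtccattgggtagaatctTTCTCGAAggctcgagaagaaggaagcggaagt
Hspb1, chr5:135887669-135887918, plus strand: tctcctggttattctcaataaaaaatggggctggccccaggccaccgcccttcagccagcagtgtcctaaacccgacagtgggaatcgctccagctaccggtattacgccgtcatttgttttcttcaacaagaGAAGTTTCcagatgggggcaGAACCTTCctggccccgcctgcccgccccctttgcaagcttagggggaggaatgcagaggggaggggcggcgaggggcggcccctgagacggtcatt
Hspa5, chr2:34771840-34772089, plus strand: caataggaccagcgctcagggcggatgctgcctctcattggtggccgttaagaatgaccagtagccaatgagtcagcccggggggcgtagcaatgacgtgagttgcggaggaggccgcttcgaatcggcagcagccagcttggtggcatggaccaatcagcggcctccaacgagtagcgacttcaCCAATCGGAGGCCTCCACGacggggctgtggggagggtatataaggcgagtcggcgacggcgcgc

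The window searched ran from 250 bases before to 50 after the start. An element of 2 units was found in 6 of the 8 genes, against 17.0% of 27025 genes with a promoter in the table and 23.4% of the other chaperone genes. An element of 3 units (GAANNTTCNNGAA or TTCNNGAANNTTC), which includes one of 2 units, was found in *Hsph1*, *Hspd1* and *Hspe1*. That element was found in 0.662% of all genes and 2.60% of the other chaperone genes. In *Hsph1* it is TTCTGGAAAGTTC, 37 to 49 bases after the start. *Hspe1* and *Hspd1* are transcribed head to head on chromosome 1, and their windows share 285 bases, so their elements are the same letters read from both strands. In *Hspe1* they are TTCTAGAACCTTC and GAACCTTCCGGAA, which overlap and run from −89 to −72. *Hspa1a* and *Hspa1b* differ at 4 of 300 bases and both hold GAAGATTC from −104 to −97. The ER stress element was found in *Hspa5* alone of the 8 genes, against 0.137% of all genes and 7.79% of the other chaperone genes. *Dnajb1* had no match to any of these letters in its windows. A match describes the sequence and shows no binding.

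Compared per kilobase of all annotated exons, the 10 genes spanned a wide range in untreated WT nodes. Mean CPM per kilobase was highest for *Hspa8*, the constitutive cytosolic HSP70, at 209, and lowest for the stress-inducible HSP70 genes, at 0.249 for *Hspa1b* and 0.0136 for *Hspa1a*. Between them in this order stood *Hspa5*, the HSP70 of the ER, at 108, *Hsp90aa1*, the inducible cytosolic HSP90, at 98.7, *Hspd1*, the mitochondrial chaperonin, at 69.5 and its cofactor *Hspe1* at 47.4. *Dnajb1*, a J-domain cochaperone, stood at 23.0, the HSP110 gene *Hsph1* at 9.78 and *Hspb1*, a small heat shock protein, at 0.506 CPM per kilobase. The libraries of neighbours in this order did not overlap. In WT skin, whose table was scaled separately, the order was different. *Hspb1* was highest there, at 376 CPM per kilobase, and *Hspa8* followed at 166. *Hspa1b* at 41.4 CPM per kilobase overlapped *Hspe1* at 42.4, *Hspa1a* stood at 15.7, and *Hsph1* was lowest at 7.00.

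After UVB treatment of WT mice, *Hspa1a*, *Hspa1b*, *Hspa8*, *Hsph1* and *Hsp90aa1* of the cytosol and *Hspd1* of the mitochondria were higher in nodes. These 6 of the 10 genes rose at an adjusted p under 0.05 (edgeR's quasi-likelihood test, Benjamini-Hochberg) and none fell, where 4.98% of the 16173 tested genes were called, 2.92% higher and 2.06% lower. The median log2 fold change of the 10 genes was 1.29, against −0.00 for all tested genes. In 7 of the 10 genes every UVB library lay above every untreated one, against 19.8% of tested genes. *Dnajb1* was among these 7 but was not called. The libraries of *Hspb1*, *Hspa5* and *Hspe1* overlapped. WT UVB library 8 was the highest of the 12 node libraries for these 7 genes, and for 14.0% of all tested genes.

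**Figure D1:**
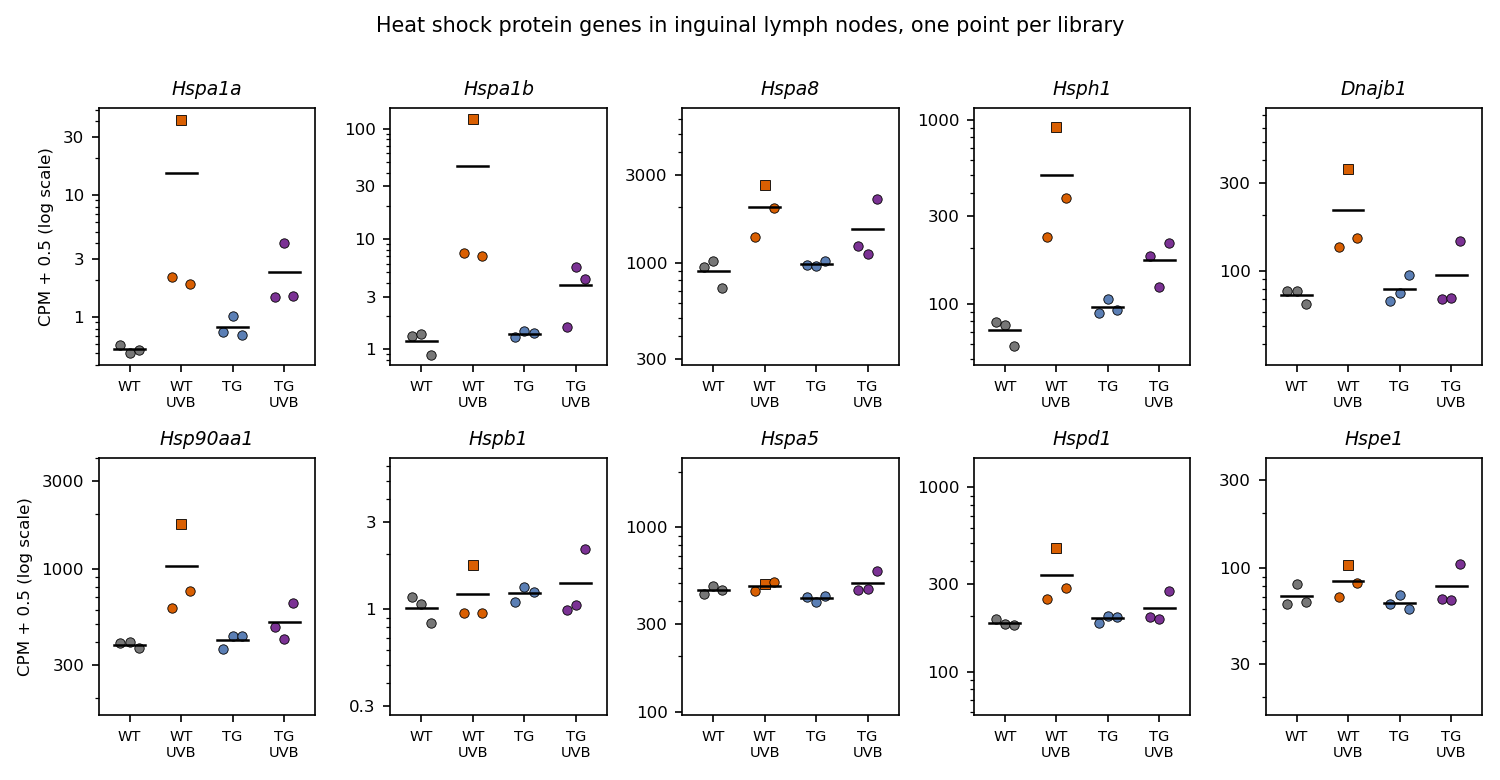
CPM of the 10 heat shock protein genes in the 12 lymph node libraries, on a log axis after adding 0.5 CPM, by genotype and UVB treatment. Points are libraries, bars are group means and the square is WT UVB library 8, which is the highest point for 7 genes, at 40.8 CPM for *Hspa1a* and 905 CPM for *Hsph1*.

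*Hspa1a* encodes the HSP70 that is nearly silent in unstressed cells and strongly induced by heat. It was listed at 0.0905, 0 and 0.0307 CPM in untreated WT nodes 1, 2 and 3, which is 3, 0 and 1 counts. In WT UVB nodes 7, 8 and 9 it stood at 1.62, 40.8 and 1.35 CPM, from 54, 1123 and 44 counts. All 3 treated libraries lay above the untreated ones, and library 8 lay far above the other two. The ratio of pooled counts after scaling was 319, with a 95% interval of 124 to 1172 that covers counting error only. Without library 8 it was 36.3, with an interval of 13.7 to 136. The fitted log2 fold change was 8.35 ± 1.91 (SE, adjusted p = 0.0442, edgeR), a value that depends on how the near-zero untreated counts are smoothed.

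*Hspa1b*, the neighbouring copy of the same protein, had 0.815, 0.878 and 0.399 CPM in untreated WT nodes 1, 2 and 3. In WT UVB nodes 7, 8 and 9 it had 6.97, 123 and 6.53 CPM. The pattern was that of *Hspa1a*, with a gap between the groups and library 8 highest. Its log2 fold change was 6.02 ± 1.36 (SE, adjusted p = 0.0442, edgeR). The transcripts of the copies share 37.9% of the read-length stretches of *Hspa1a* (151 bases) and 40.3% of those of *Hspa1b*, so the split of counts between them is uncertain. Their summed counts gave a log2 fold change of 6.34 (adjusted p = 0.0441, edgeR).

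*Hspa8* stood at 949, 1016 and 725 CPM in untreated WT nodes 1, 2 and 3, and at 1381, 2644 and 1977 CPM in UVB nodes 7, 8 and 9. The groups were apart, and the mean went from 897 ± 152 to 2001 ± 632 CPM (SD, n = 3 in each). The log2 fold change was 1.16 ± 0.27 (SE, adjusted p = 0.0410, edgeR). *Hsph1* stood at 78.8, 75.7 and 58.6 CPM in untreated nodes 1, 2 and 3, and at 228, 905 and 373 CPM in UVB nodes 7, 8 and 9. Every UVB library was thus well above the untreated ones. Its log2 fold change of 2.82 ± 0.46 (SE) had the lowest adjusted p of the 10 genes, 0.0234 (edgeR).

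*Dnajb1* stood at 77.6, 77.6 and 65.6 CPM in untreated WT nodes 1, 2 and 3, and at 134, 357 and 150.5 CPM in UVB nodes 7, 8 and 9. The groups did not overlap, but the log2 fold change of 1.54 ± 0.41 (SE) did not pass the threshold (adjusted p = 0.0626, edgeR). *Hsp90aa1* went from 394, 400.0 and 370.1 CPM in nodes 1, 2 and 3 to 615, 1750.0 and 763 CPM in UVB nodes 7, 8 and 9. Its libraries were apart, with a log2 fold change of 1.43 ± 0.33 (SE, adjusted p = 0.0425, edgeR).

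Of the genes of the mitochondria and the ER, *Hspd1* was called. It had 192, 181 and 178 CPM in untreated WT nodes 1, 2 and 3 and 248, 471 and 283 CPM in UVB nodes 7, 8 and 9, a log2 fold change of 0.86 ± 0.21 (SE, adjusted p = 0.0414, edgeR). Its partner *Hspe1*, which shares the promoter stretch, had means of 69.9 ± 10.3 and 84.8 ± 17.3 CPM (SD, n = 3 in each), and the log2 fold change of 0.28 ± 0.19 (SE) was not called (adjusted p = 0.370, edgeR). *Hspa5* was nearly level, with means of 456 ± 24.8 and 483 ± 26.7 CPM and a log2 fold change of 0.08 ± 0.10 (SE, adjusted p = 0.654, edgeR). *Hspb1*, abundant in skin, was low in every node library, at 0.338 to 1.62 CPM, from 11 to 53 counts.

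All 6 calls were lost without WT UVB library 8, when edgeR called none of all tested genes. They were also lost without WT UVB library 9 or without any 1 of the untreated WT libraries. Some were lost without a TG library as well, which shares the fit. Of 12 fits that left out 1 node library, *Hspa1a*, *Hspa1b*, *Hsp90aa1* and *Hspd1* passed in 3. *Hspa8* passed in 4 of them and *Hsph1* in 7. The direction remained in WT UVB libraries 7 and 9. Both lay above every untreated library for 7 of the 10 genes, against 22.7% of tested genes. Log2 fold changes without library 8 were 5.06 for *Hspa1a*, 3.27 for *Hspa1b* and 2.08 for *Hsph1* (adjusted p = 0.0655, 0.0571 and 0.0518, edgeR). They were 0.95 for *Dnajb1*, 0.91 for *Hspa8*, 0.83 for *Hsp90aa1* and 0.53 for *Hspd1*, with adjusted p-values between 0.0799 and 0.188 (edgeR). Library 8 alone held 177 times the untreated mean CPM of *Hspa1b*, 12.7 times that of *Hsph1* and 2.95 times that of *Hspa8*, where the 2 other UVB libraries together averaged 9.68, 4.23 and 1.87 times. The 10 genes took 0.183% to 0.233% of all counts in untreated WT nodes, 0.327% and 0.413% in UVB libraries 7 and 9, and 0.686% in library 8.

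Several other features of the WT nodes moved with the treatment. Summed erythroid markers (4 genes) went from 80.2 to 169 CPM in untreated libraries to between 6.69 and 26.5 CPM after UVB, and 2 of the 3 tested fell. Summed fibroblast markers (6 genes) went from between 46.1 and 66.1 CPM to between 13.9 and 37.9 CPM, and 1 of them fell. Leukocyte markers (4 genes) summed to 6121 to 6265 CPM without and 5460 to 5675 CPM with UVB, and T cell markers to 1836 to 1874 and 1476 to 1664 CPM. The cold-inducible genes *Cirbp* and *Rbm3* summed to 581 to 847 CPM without and 369 to 525 CPM with UVB, and neither was called. Keratinocyte markers summed to 2.51 CPM or less in every node library. The immediate early genes (16 genes), which respond to handling, overlapped between the groups at 887 to 1116 and 1012 to 1139 CPM, and 1 of 16 rose. Lymph node stroma markers (4 symbols) summed to 56.3 to 77.3 CPM without and 16.7 to 47.9 CPM with UVB, with none called, and adipocyte markers (5 genes) to 1.45 to 7.03 and 0.400 to 0.797 CPM, with 1 of 2 tested lower. The part of these features in the values of the heat shock protein genes was not tested.

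In TG nodes the same genes were higher after UVB in every fold change, but none was called. In this comparison edgeR called 0 of all tested genes, while 9.32% had an unadjusted p under 0.05, 2 of the 10 genes among them (*Hspa8* and *Hspa5*). DESeq2 called 134 genes, none of them among the 10. It gave no adjusted p for *Hspa1a* and *Hspa1b* in nodes, so it could not call these. The median log2 fold change of the 10 genes was 0.32, against 0.02 for all tested genes. In 5 of the 10 genes, *Hspa1a*, *Hspa1b*, *Hspa8*, *Hsph1* and *Hspa5*, every UVB library lay above every untreated one, against 6.23% of tested genes.

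*Hspa1a* stood at 0.243, 0.511 and 0.202 CPM in untreated TG nodes 4, 5 and 6, and at 0.960, 3.52 and 0.979 CPM in UVB nodes 10, 11 and 12. The ratio of pooled counts after scaling was 5.45, with a 95% interval of 3.75 to 8.13 for counting error, and the log2 fold change was 2.49 ± 1.45 (SE, adjusted p = 0.638, edgeR). *Hspa1b* stood at 0.784, 0.965 and 0.922 CPM without and 1.10, 5.12 and 3.82 CPM with UVB. Library 11 was the highest TG UVB library of both genes, and library 12 that of the 8 others. *Hsph1* stood at 88.4, 106 and 91.5 CPM in nodes 4, 5 and 6 and at 181, 123 and 214 CPM in UVB nodes 10, 11 and 12, a log2 fold change of 0.86 ± 0.43 (SE, adjusted p = 0.578, edgeR). *Hspa8* stood at 967, 958 and 1017 CPM without and at 1227, 1112 and 2209 CPM with UVB, with library 12 well above the others. *Hspa5* had means of 412 ± 16.6 and 499 ± 71.0 CPM (SD, n = 3 in each), and its log2 fold change of 0.28 ± 0.10 (SE) was not called (adjusted p = 0.433, edgeR). *Dnajb1*, *Hsp90aa1*, *Hspd1*, *Hspe1* and *Hspb1* overlapped between the groups, with log2 fold changes of 0.19 to 0.33. TG UVB library 12 was the highest of all 12 node libraries for *Hspb1*, *Hspa5* and *Hspe1*, and for 12.8% of tested genes. Erythroid markers and the cold-inducible pair differed with UVB here as well, at 164 to 192 against 16.7 to 105 CPM and 559 to 651 against 256 to 440 CPM.

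**Figure D2:**
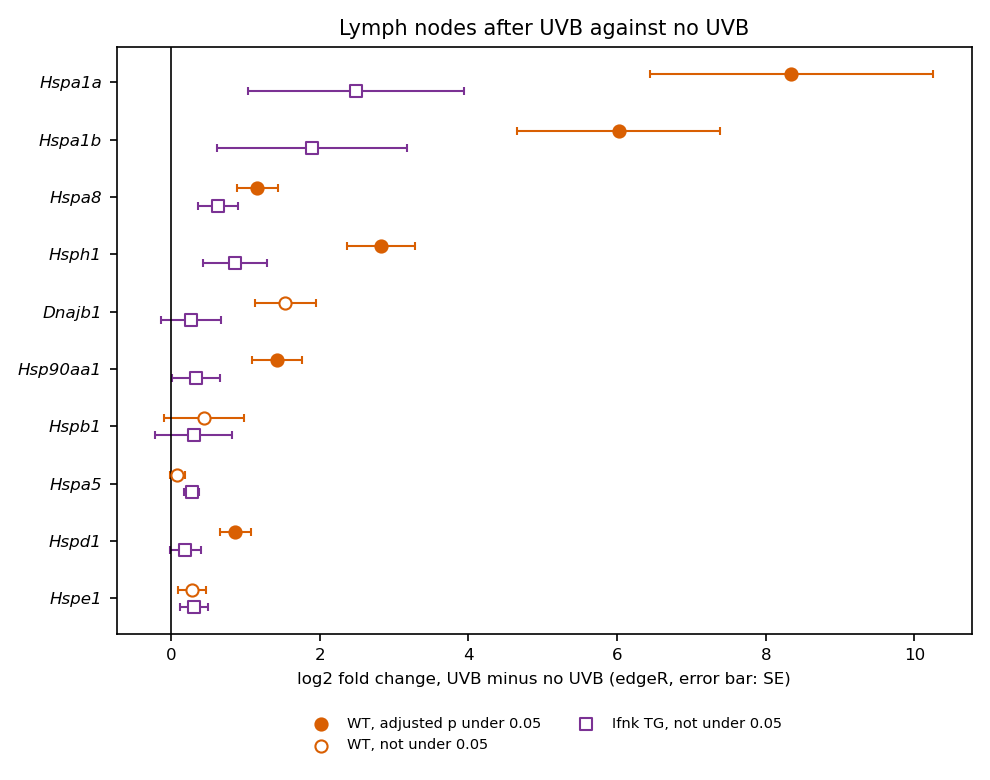
Log2 fold change with UVB (± SE) of each gene in WT nodes (circles) and TG nodes (squares), from edgeR. Filled symbols passed an adjusted p of 0.05, which 6 WT values did and no TG value did. The WT value is the larger for 8 genes, and the largest is 8.35 for *Hspa1a*.

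Whether the UVB difference depended on genotype was asked by an interaction term, which is negative where the TG difference was smaller. It was negative for 8 of the 10 genes, with a median of −0.88, and reached −5.86 ± 2.61 (SE) for *Hspa1a*, −4.12 ± 1.86 for *Hspa1b* and −1.96 ± 0.61 for *Hsph1* on the log2 scale. With 1 library left out, the term ranged from −7.06 to −2.57 for *Hspa1a*, −4.63 to −1.37 for *Hspa1b* and −2.31 to −1.22 for *Hsph1*. No gene of the 10 passed the threshold (lowest adjusted p = 0.848, edgeR). Over all tested genes edgeR called 0 and DESeq2 5, and 5.45% had an unadjusted p under 0.05, 3 of the 10 genes among them. These 3 were *Hsph1*, *Hsp90aa1* (−1.09 ± 0.46, SE) and *Hspd1* (−0.67 ± 0.29, SE), and not *Hspa1a* or *Hspa1b*. A difference in the UVB response between genotypes was thus not shown for any of the 10 genes.

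TG nodes compared with WT nodes after UVB gave 0 calls over all genes with edgeR and 21 with DESeq2, none of them among the 10. DESeq2 could not call *Hspa1a* and *Hspa1b*, for which it gave no adjusted p. An unadjusted p under 0.05 was found for 6.99% of tested genes and for 6 of the 10. *Hspa1b* and *Hsph1* were lower in every TG UVB library than in every WT UVB library, WT library 8 or not, which held for 4.32% of tested genes. Their log2 differences were −3.77 and −1.54 (adjusted p = 0.673 for both, edgeR). The log2 difference was −3.01 for *Hspa1a* (adjusted p = 0.702, edgeR), −1.17 for *Dnajb1* and −1.01 for *Hsp90aa1*, and their libraries overlapped. With 1 library left out, the difference ranged from −4.28 to −1.02 for *Hspa1b*, −1.89 to −0.80 for *Hsph1* and −3.89 to 0.28 for *Hspa1a*. This comparison uses the same WT UVB libraries as the UVB comparison in WT nodes. In untreated nodes edgeR also called 0 genes between genotypes and DESeq2 2, and 3.39% had an unadjusted p under 0.05, none of the 10 among them. Untreated TG nodes held more *Hspa1a* and *Hsph1* in every library, which 5.52% of tested genes did, and less *Hspa5*, where 4.93% were lower in every library. Their log2 differences were 2.85, from 34 TG against 4 WT counts in all, 0.42 and −0.15.

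The other chaperone genes place these values in their pathway. Of 94 such genes in 9 lists, 88 were tested in nodes, and UVB in WT nodes changed 12 of them (13.6%, against 4.98% of all genes), with 11 higher and 1 lower. The HSP90 list, which holds HSP90 and the cochaperones that pass clients to it, had 7 of 14 higher and a median log2 fold change of 0.73. In that list *Ahsa2*, a homologue of the HSP90 ATPase activator, rose by 1.72 (adjusted p = 0.0343), *Stip1*, which links HSP70 to HSP90, by 1.48 (adjusted p = 0.0234) and the constitutive *Hsp90ab1* by 0.81 (adjusted p = 0.0425, all edgeR) on the log2 scale. Of the J-domain list 3 of 17 rose, with *Dnaja1* highest at 1.64 (adjusted p = 0.0280, edgeR).

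The ER list had 2 of 17 called, *Hsp90b1*, the HSP90 of the ER, at 0.42 (adjusted p = 0.0422) and the ER disulfide reductase *Dnajc10* at −0.44 (adjusted p = 0.0269, both edgeR). No gene was called among 8 tested in the HSP70 and HSP110 list (*Hspa4*, 0.09), 9 mitochondrial genes (*Hspa9*, −0.00), 8 subunits of the cytosolic chaperonin, 7 BAG and exchange factors (*Bag3*, 0.86, adjusted p = 0.125), 4 heat shock factors (*Hsf1*, 0.38, adjusted p = 0.0691, edgeR) and 4 small heat shock proteins (*Cryab*, −0.01). The BAG list had 2 of 7 genes with every UVB library above the untreated ones, *Bag3*, a cochaperone of HSP70 in autophagy, among them, and 4 of 7 with every one below, against 19.8% and 17.3% of all tested genes, and its median log2 fold change was −0.15. *Hsf1*, the factor that induces heat shock genes, was also higher in every UVB library. Without library 8 none of the 88 was called. In TG nodes none of the 88 was called, and the HSP90 list had 6 of 14 genes with all UVB libraries above the untreated ones and 2 of 14 with all below, against 6.23% and 7.11% of all tested genes. Its median log2 fold change was 0.27, against 0.02 for all tested genes.

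**Figure D3:**
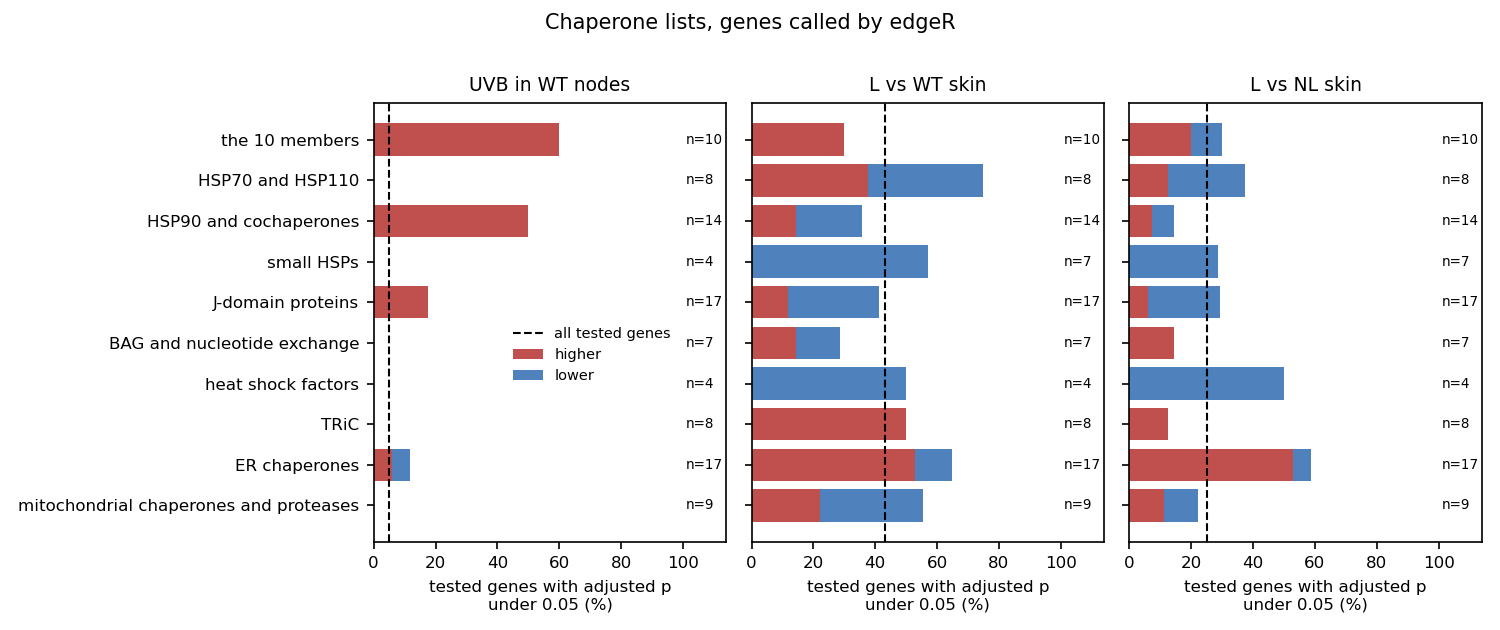
Percentage of tested genes called higher or lower (edgeR, adjusted p under 0.05) in the 10 heat shock protein genes and each list of other chaperone genes, for UVB in WT nodes and for lesional skin against WT and nonlesional skin. Dashed lines give the percentage of all tested genes called, 4.98%, 43.1% and 25%, and the HSP90 list stands at 7 of 14 in WT nodes.

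The genes whose pattern over the 12 node libraries was most like that of *Hspa1a* were sought by the root mean square difference of their centred log2(CPM + 0.5) values. Outside the 10 genes they were *Slc5a3*, a myo-inositol transporter, at 1.02, *Gm7816* at 1.14, *Ahsa2* at 1.15, *Dnaja1* at 1.17 and *Gm15542* at 1.19, where *Hspa1a* itself varied with a root mean square of 1.69. Within the 10, *Hspa1b* was nearest at 0.548 and *Hsph1* followed at 0.909. Over the 9 skin libraries, where *Hspa1a* varied by 0.213, the nearest were *Zfp61*, *Abr*, *Tmod3*, *Ripk2* and *Atxn3*, at 0.0951 to 0.102, and *Hspa1b* was farther off at 0.218.

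Lesional skin differed from WT skin in 3 of the 10 genes (edgeR), where 43.1% of the 19101 tested genes were called. All 3 rose, where 23% of all genes were called higher and 20.2% lower. They were *Hspa5* of the ER, *Hspe1* of the mitochondria and *Dnajb1*. Every lesional library lay above every WT library for 2 of the 10 genes, *Hspa5* and *Hspe1*, against 26% of tested genes. The inducible *Hspa1a* and *Hspa1b* and the HSP90 and HSP110 genes were not called. Lesional library 7 was the highest skin library for 6 of the 10 genes, and for 16.7% of tested genes.

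**Figure D4:**
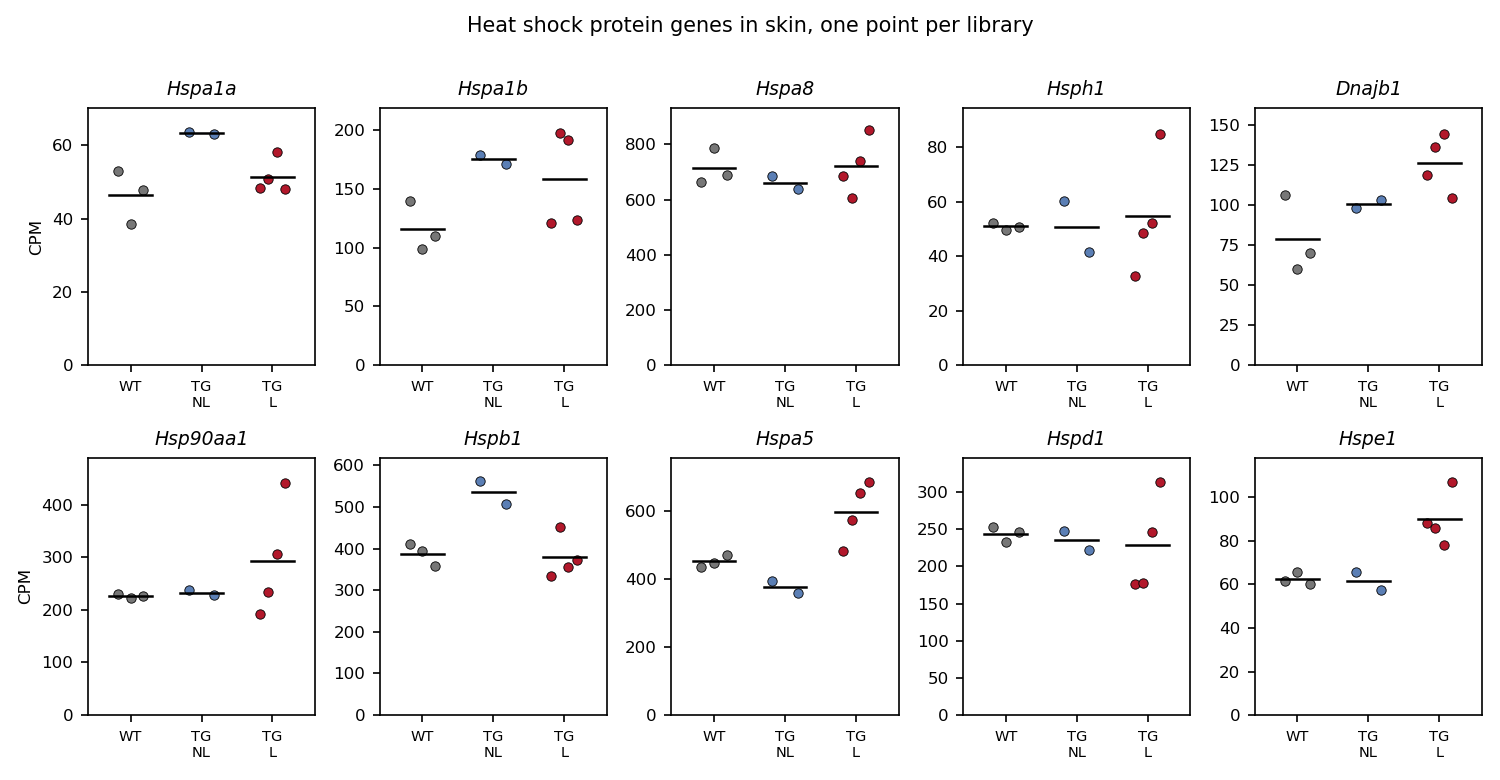
CPM of the 10 heat shock protein genes in the 9 skin libraries (WT, TG nonlesional, TG lesional), on linear axes from 0. Points are libraries and bars are group means. The 4 lesional libraries lie above all others for *Hspa5* (481 to 683 CPM) and *Hspe1* (78.2 to 107 CPM).

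*Hspa5*, known as BiP, binds nascent proteins in the ER and restrains the sensors of the unfolded protein response. It stood at 435, 447 and 471 CPM in WT skin 8, 9 and 10, at 392 and 359 CPM in nonlesional skin 2 and 3, and at 481, 572, 652 and 683 CPM in lesional skin 4, 5, 6 and 7. The lesional libraries were the highest and the nonlesional ones the lowest, with no overlap between any groups. The log2 fold change was 0.41 ± 0.14 (SE, adjusted p = 0.0445) against WT and 0.67 ± 0.16 (SE, adjusted p = 0.0188, both edgeR) against nonlesional skin. The call against WT was near the threshold and was lost in 4 of 5 alternatives that keep every library, with adjusted p-values of 0.0418 to 0.110 (edgeR and DESeq2), and in 8 of 9 fits that left out 1 library.

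*Hspe1* stood at 61.7, 65.8 and 60.1 CPM in WT skin 8, 9 and 10, at 65.5 and 57.7 CPM in nonlesional skin 2 and 3, and at 88.4, 86.0, 78.2 and 107 CPM in lesional skin 4, 5, 6 and 7. Every lesional library was above all others. The log2 fold change was 0.52 ± 0.12 (SE, adjusted p = 0.00768) against WT and 0.55 ± 0.14 (SE, adjusted p = 0.0204, both edgeR) against nonlesional skin. Its call against WT passed in every alternative, including without any 1 library. Its head-to-head partner *Hspd1* was not called and had a log2 fold change of −0.09 against WT, with 253, 233 and 246 CPM in WT and 177, 178, 246 and 314 CPM in lesional skin.

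*Dnajb1* stood at 106, 60.3 and 70.3 CPM in WT skin 8, 9 and 10, at 98.4 and 103 CPM in nonlesional skin 2 and 3, and at 119, 137, 145 and 105 CPM in lesional skin 4, 5, 6 and 7. Lesional and WT libraries overlapped narrowly through lesional 7 and WT 8. The log2 fold change against WT was 0.68 ± 0.20 (SE, adjusted p = 0.0227, edgeR), and it passed in 6 of 9 fits that left out 1 library. *Hspb1* stood at 412, 394 and 357 CPM in WT skin, at 561 and 508 CPM in nonlesional skin and at 335, 451, 356 and 373 CPM in lesional skin. The nonlesional libraries were the highest, and lesional skin fell below them by a log2 of −0.50 ± 0.15 (SE, adjusted p = 0.0364, edgeR), while the log2 fold change against WT was −0.03. The *Hspb1* call passed in 1 of 9 fits that left out 1 library.

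**Figure D5:**
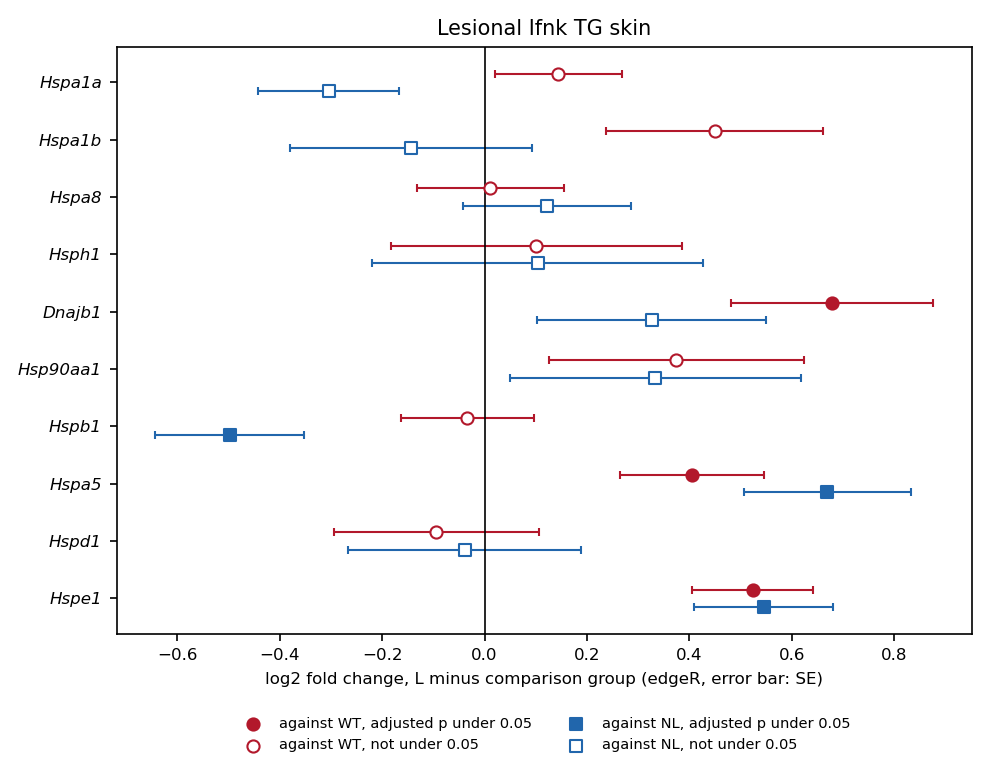
Log2 fold change (± SE) of each gene in lesional skin against WT skin (circles) and against nonlesional skin (squares), from edgeR. The values share the lesional libraries. *Hspa5* and *Hspe1* are higher in both, between 0.41 and 0.67, and *Hspb1* is lower against nonlesional skin only, at −0.50.

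Against nonlesional skin, 3 of the 10 genes were called, where 25% of tested genes were. None of them was called without nonlesional library 2 or without nonlesional library 3. Libraries did not overlap for *Hspa5*, *Hspe1* and *Dnajb1*, which were higher, and for *Hspb1* and *Hspa1a*, which were lower, against 24.7% of tested genes in each direction. *Hspa1a* stood at 53.1, 38.6 and 47.7 CPM in WT skin, 63.7 and 63.1 CPM in nonlesional skin and 48.3, 50.8, 58.2 and 48.1 CPM in lesional skin. *Hspa1b* stood at 139.7, 99.1 and 109.5 CPM in WT skin, 179 and 171 CPM in nonlesional skin and 121, 198, 192 and 124 CPM in lesional skin. Both genes were thus well expressed in untreated skin, and their summed log2 fold change of 0.37 against WT was not called (adjusted p = 0.139, edgeR). *Hsp90aa1* ranged from 192 to 441 CPM in lesional skin and had a log2 fold change of 0.37 against WT (adjusted p = 0.255, edgeR). *Hspa8* and *Hsph1* had log2 fold changes of 0.01 and 0.10 against WT.

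Nonlesional skin was compared with WT skin to set genotype apart from the lesion. edgeR called 0 of all genes and DESeq2 62, none of them among the 10, and 7.67% of tested genes had an unadjusted p under 0.05, 3 of the 10 among them. Both nonlesional libraries were above all WT libraries for *Hspa1a*, *Hspa1b* and *Hspb1*, where 18.6% of tested genes were, with log2 fold changes of 0.45, 0.59 and 0.46 (adjusted p = 0.574, 0.647 and 0.585, edgeR). Both were below them for *Hspa5*, where 16.3% of tested genes were, with a log2 fold change of −0.26 (adjusted p = 0.736, edgeR). With 2 nonlesional libraries the precision of these values is low.

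Of the other chaperone genes, 46 of 91 tested were called in lesional against WT skin (50.5%, against 43.1% of all genes), 23 higher and 23 lower. The ER list had 9 of 17 higher and 2 lower. In it *Creld2*, an ER chaperone of the unfolded protein response, rose by 0.98 and *Hsp90b1* by 0.48 on the log2 scale. The small heat shock proteins had 4 of 7 lower and none higher. Among them *Hspb6*, expressed in muscle, fell by 3.67, and *Cryab*, the alpha-B crystallin of muscle and lens, fell by 2.88 on the log2 scale, from a mean of 565.7 to 77.1 CPM (adjusted p = 0.00198, edgeR). The cytosolic chaperonin had 4 of 8 higher, with *Cct3* at 0.76. The HSP70 and HSP110 list had 3 of 8 higher and 3 lower, with *Hspa1l*, the testis HSP70, at −3.08, while *Hspa4*, at 0.27, was not called.

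The HSP90 list had 5 of 14 called, with the p23 cochaperone *Ptges3* at 0.72, while *Hsp90ab1* and *Stip1*, at 0.02 and 0.34, were not called. Of the J-domain list 7 of 17 were called (*Dnajb5*, −2.29), and of the heat shock factors 2 of 4, both lower (*Hsf4*, −1.51), with *Hsf1* at −0.08 not called. The BAG list had 2 of 7 called, *Bag2* at 0.73 and *Bag3* at −0.44, and the mitochondrial list 5 of 9, with *Trap1*, the mitochondrial HSP90, at −0.68 and *Hspa9*, the mitochondrial HSP70, at −0.49. Against nonlesional skin 28 of 91 were called (30.8%, against 25% of all genes), 15 higher and 13 lower, where 13.2% of all genes were higher and 11.8% lower. The ER list had 9 of 17 higher, with *Creld2* at 0.99, and 1 lower.

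The makeup of the skin libraries moved with the groups. Summed skeletal muscle markers (7 genes) were at 25714 to 35824 CPM in WT, 24395 to 28600 CPM in nonlesional and 23.7 to 6646 CPM in lesional skin, and 3 of 7 fell against WT. Summed hair shaft keratins (6 genes) were at 0.173 to 0.502 CPM in WT, 0.306 to 1.15 CPM in nonlesional and 1283 to 4742 CPM in lesional skin, and all 6 rose. Keratinocyte markers summed to 8512 to 10438, 15260 to 17244 and 7803 to 22665 CPM, adipocyte markers (5 genes) to 4207 to 7823, 3566 to 4789 and 621 to 3044 CPM, and neutrophil markers (4 genes) to 6.43 to 14.1, 8.31 to 9.59 and 47.3 to 508 CPM in the same order of groups. Plasma cell markers (4 genes) summed to 413 to 449 CPM in WT, 579 to 605 CPM in nonlesional and 687 to 1141 CPM in lesional skin. Of these sums *Xbp1* alone averaged 189 CPM in WT and 205 CPM in lesional skin. In each WT library 1 of the 4 genes had at most 3 counts. The sum is therefore no measure of plasma cell number. Against WT, 2 of 4 rose. *Xbp1*, one of the 4 and a factor of the unfolded protein response, was not called. Its log2 fold change against WT was 0.11 (adjusted p = 0.601, edgeR), and its libraries overlapped. The cold-inducible pair summed to 258 to 327, 252 to 375 and 384 to 883 CPM, and *Rbm3* rose against WT by 1.18 on the log2 scale (adjusted p = 0.0105, edgeR). *Cirbp* had a negative fold change against WT and was not called. The part of these features in the values of the chaperone genes was not tested.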

How the data were processed

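RNA was measured in 9 skin and 12 inguinal lymph node libraries from poly-A selected RNA with paired reads of 151 bases. The authors deposited expected counts per gene for each tissue. The submitters' processing notes name cutadapt 4.8, FastQC 0.11.8, STAR 2.7.8a, RSEM 1.3.3, MultiQC 1.20 and GRCm38. The values were rounded to whole numbers and used as counts. The annotation release is not given in the sources used here. Gene positions and exon lengths came from GENCODE M21 and promoters from RefSeq (GRCm38.p6), which matched 8 of the 10 genes.

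Genes were kept by filterByExpr by group. It asks for about 10 counts in at least as many libraries as the smallest group has, and 15 summed. Libraries were scaled by TMM, and each tissue was fitted by group with edgeR 4.0.16 (R 4.3.3, limma 3.58.1, glmQLFit robust, quasi-likelihood F-test). P-values were adjusted by Benjamini-Hochberg over all tested genes of a comparison and called under 0.05, and "rose" and "fell" refer to such calls. The script was tested on simulated data. Standard errors were derived from the F statistic. The skin and node tables were scaled separately. CPM per kilobase divides mean CPM by the length of all annotated exons of the gene, with overlapping bases counted once. This can be longer than the transcript expressed.

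A count of 0 allows a share of up to 3 counts of a library, 5.31e-06% to 7.41e-06% in skin and 8.24e-06% to 1.09e-05% in nodes, for counting error only. Replicates differed beyond sampling noise in every group, and none was merged. The members, the lists of other chaperone genes and the markers were chosen with earlier results of these data known. Named genes are the 10 members, the called gene with the largest change in a list, and the 5 genes most like *Hspa1a* in each tissue. For UVB in WT nodes and for lesional against WT skin, 8 other chaperone genes are always given (*Hsf1*, *Hsp90ab1*, *Hsp90b1*, *Hspa4*, *Hspa9*, *Cryab*, *Bag3*, *Stip1*). The alternatives were DESeq2 1.42.0, its size factors, the unfiltered table, a minimum of 10 counts in each library, the compared groups alone and each library left out.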

Additional observations from a re-analysis of the deposited data

How the results depend on the processing

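No paired analysis was possible because the replicate numbers are library numbers that no 2 groups of a tissue share. No called gene of the 10 changed direction under any alternative. Of the log2 fold changes of the 10 genes, called or not, 6 of 400 values changed sign under settings that keep every library, all in uncalled results within 0.04 of 0, and 40 of 870 did with 1 library left out, all in uncalled results.

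The number of the 10 genes called for UVB in WT nodes was 6, but 1 with no filter on low counts and 2 with the compared groups alone, and 0 to 7 with 1 library left out. It was 0 without WT UVB library 8 or 9 or any of the untreated WT libraries 1, 2 and 3, and 7 without WT UVB library 7. DESeq2 gave no adjusted p for *Hspa1a* and *Hspa1b* in nodes and called 5 of the other 8, *Dnajb1* among them. In lesional against WT skin the number was 3, but 1 with the compared groups alone and 1 to 3 with 1 library left out (1 without lesional 6, WT 9 or WT 10). In lesional against nonlesional skin it was 3, but 0 with the compared groups alone and 0 to 3 with 1 library left out (0 without nonlesional 2 or 3). Of the other chaperone genes, UVB in WT nodes changed 12, but 22 with DESeq2 and 0 to 18 with 1 library left out (0 without WT UVB library 8 or untreated WT library 3). UVB in TG nodes changed 0 of them, or 1 without TG UVB library 12, and lesional against nonlesional skin 28, or 4 to 35 with 1 library left out (10 without nonlesional 2 and 4 without nonlesional 3). Over all genes, UVB in WT nodes gave 805 calls with edgeR, 1972 with DESeq2, 2431 with the compared groups alone and 0 to 2644 with 1 library left out. Lesional against nonlesional skin gave 4782, 3156 with the compared groups alone and 1182 to 5187 with 1 library left out. The causes were not tested.

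Depth limits *Hspa1a*, *Hspa1b* and *Hspb1* in nodes, where untreated WT libraries held as few as 0 counts of *Hspa1a*. Groups of 2 to 4 libraries limit the rest.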
